A study of Ovis aries with 10 samples.

Results

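The calgranulins S100A8, S100A9 and S100A12 are small calcium-binding proteins of the S100 family that neutrophils and monocytes hold in large amounts in their cytoplasm. The 3 genes were selected from the 80 genes that the authors listed as differing between Day 5 and Day 1 in fetal sheep PBMCs, so they were chosen by the same difference in expression that is described here. That difference is therefore given as a description, with no test for any member. All 3 had pooled means in the authors' table, and 1 of the 3, S100A9 (ENSOARG00020000744), could be followed library by library among the 30620 genes of the deposited rlog values. For S100A8 and S100A12 the values of single fetuses were not analysed here, because the rlog values are listed by Ensembl identifier and no identifier was at hand for these symbols.

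S100A8 and S100A9 pair into a heterodimer, calprotectin, which makes up a large share of the cytosolic protein of neutrophils and is also present in monocytes. Once released, calprotectin withholds zinc, manganese and other metals from microbes, and it is a ligand of the endotoxin receptor TLR4. S100A12 is a relative that acts on the receptor RAGE and on TLR4. All of them are widely used as markers of inflammation.

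Peripheral blood mononuclear cells (PBMCs) are separated from most granulocytes and red cells by a density gradient. They were collected from the blood of 5 singleton fetuses of Columbia-Rambouillet crossbred ewes. Each fetus was sampled on Day 1 and on Day 5, and the 10 samples were sequenced as 1 RNA-seq library each (n = 5 per day). The comparison asks how the transcripts of circulating fetal leukocytes differ after repeated intravenous lipopolysaccharide (LPS), the endotoxin of Gram-negative bacteria. The Day 1 sample (pre-LPS) was drawn at 123 days of gestational age (dGA) after 0 boluses. The Day 5 sample (LPS) was drawn at 127 dGA after 3 boluses of E. coli LPS, given as 0.3 µg (Day 1), 1.5 µg (Day 3) and 3 µg (Day 4), and before the bolus of that day. The same fetuses gave both samples and no PBMC library of a fetus without LPS enters the comparison, so LPS exposure cannot be told apart from the days of gestation that passed. In these bulk samples, a larger share of calgranulin-expressing cells among the PBMCs and more calgranulin RNA per cell cannot be told apart either.

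The 3 genes were clustered on chromosome 1 of ARS-UI_Ramb_v2.0. S100A9 was listed on the plus strand from 103735529 to 103738351. S100A12 followed on the minus strand from 103749551 to 103750997. S100A8 lay last, also on the minus strand, from 103769156 to 103771287. The gap between S100A9 and S100A12 was 11199 bases and that between S100A12 and S100A8 was 18158 bases, so that the cluster covered 35758 bases. Of the 80 listed genes, 7 were on chromosome 1, and 3 of these were the calgranulins. The nearest of the other listed genes was FCGR3A, at a distance of 9208913 bases. A RefSeq gene table of the later assembly ARS-UI_Ramb_v3.0 named 18 genes with an S100 symbol, of which 15 were on chromosome 1. The calgranulins were the 3 genes of this family in the authors' table. In the order of that RefSeq table, PGLYRP4, a peptidoglycan recognition gene, stood directly before S100A9, and 1 annotated gene stood between S100A9 and S100A8.

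All 3 calgranulins were higher on Day 5 in the authors' means. These are least-squares means over the libraries of a day, on a count scale whose normalization is not stated, and as pooled values they carry no error. The authors' mean of S100A9 was 164 on Day 1 and 1560 on Day 5, a ratio of 9.51. That of S100A12 was 80.7 on Day 1 and 571 on Day 5, a ratio of 7.08. S100A8, the partner of S100A9 in calprotectin, had the lowest level and the highest ratio of the 3. Its authors' mean was 28.8 on Day 1 and 286 on Day 5, a ratio of 9.93. Summed over the 3 genes, the authors' means came to 273.5 on Day 1 and 2417 on Day 5.

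Among the 80 listed genes, the ratio of Day 5 to Day 1 ran from 0.155 to 22.6 with a median of 2.93, and 59 genes were higher and 21 lower. The calgranulins took rank 5 (S100A8), rank 6 (S100A9) and rank 9 (S100A12) in this ratio, and their median was 9.51. By its Day 5 mean S100A9 was rank 2 of the 80 genes, after rank 14 on Day 1. S100A12 was rank 9 on Day 5 and rank 35 on Day 1. S100A8 was rank 27 on Day 5 and rank 57 on Day 1. The calgranulins thus stood among both the steeper and, for S100A9 and S100A12, the more abundant genes of a list that was itself selected for its difference between the days.

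**Figure D1:**
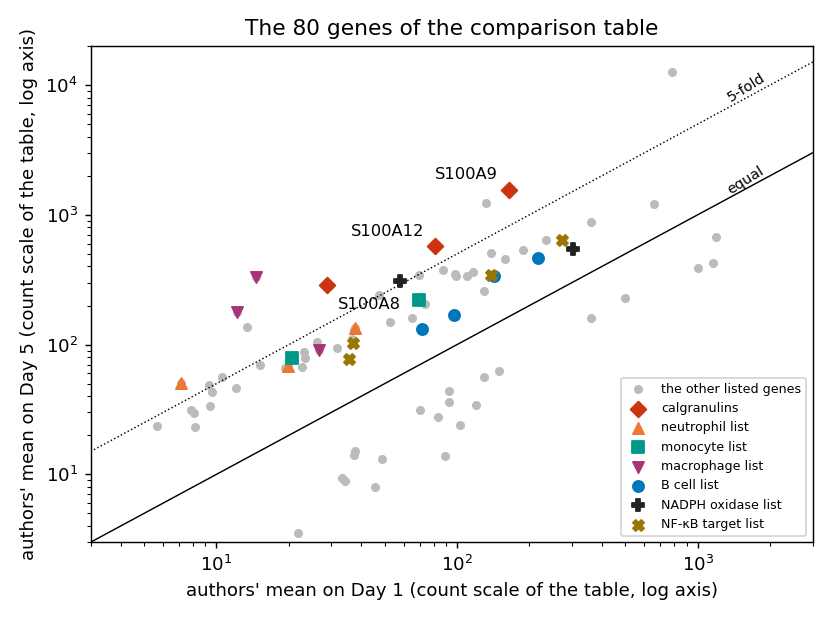
Authors' pooled mean of each of the 80 listed genes on Day 1 (x axis) and Day 5 (y axis), both on the count scale of the table with log axes. Each point is 1 gene without replicate error, markers show the gene lists, the solid line is equality and the dotted line a ratio of 5, and all 3 calgranulins (red diamonds) lie above the dotted line.

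Levels of different genes were compared per kb of the listed gene span, which includes introns and so is not the length of the transcript. On this scale the authors' mean of S100A9 was 58.1 per kb on Day 1 and 553 per kb on Day 5. S100A12 had 55.8 per kb on Day 1 and 395 per kb on Day 5. S100A8 had 13.5 per kb on Day 1 and 134 per kb on Day 5. S100A9 was thus the most abundant of the 3 on both days, and S100A8 the least abundant.

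The proportions among the calgranulins moved less than their levels. Per kb, S100A9 stood at 4.30 times S100A8 on Day 1 and at 4.12 times on Day 5, so the members of the calprotectin pair kept nearly the same proportion. S100A9 and S100A12 were close on Day 1, with a ratio of 1.04, and farther apart on Day 5, with a ratio of 1.40. The ratio of S100A12 to S100A8 was 4.13 on Day 1 and 2.94 on Day 5. Because the means are pooled, whether S100A9 and S100A12 differed by more than the spread between fetuses on either day could not be assessed. Among the 80 genes, the level per kb placed S100A9 at rank 7 on Day 1 and rank 3 on Day 5, S100A12 at rank 8 and rank 5, and S100A8 at rank 24 and rank 8.

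**Figure D2:**
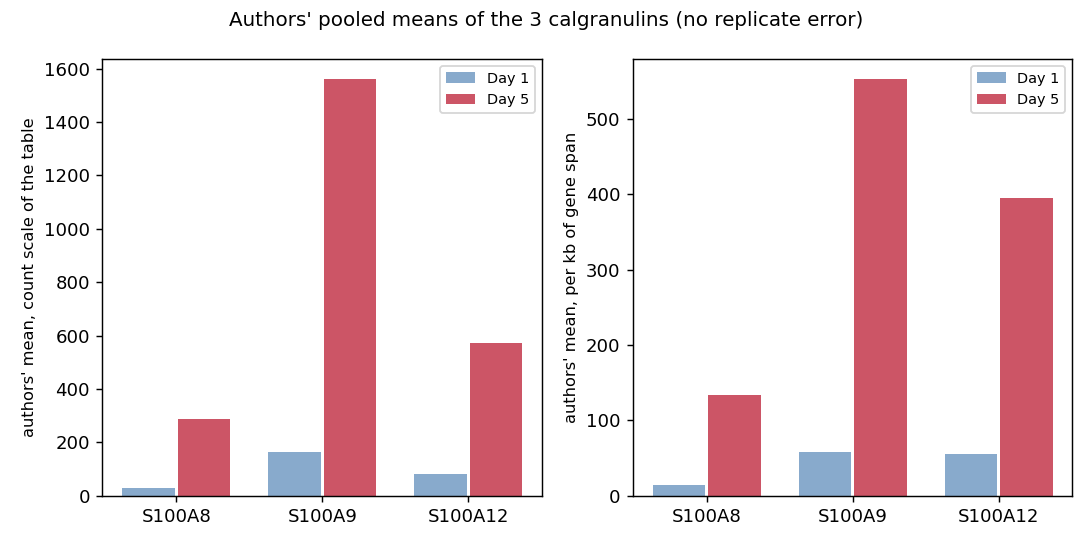
Authors' pooled means of S100A8, S100A9 and S100A12 on Day 1 (blue) and Day 5 (red), on the count scale of the table (left) and per kb of the listed gene span (right). Bars are pooled over the libraries of a day and have no error bars; per kb, S100A9 and S100A12 are close on Day 1 (58.1 and 55.8) and apart on Day 5 (553 and 395).

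The S100A9 transcript could be followed in each fetus in the rlog values, which are log2 counts scaled to library size and drawn toward each gene's mean, most strongly where reads are few. Read counts were not analysed here, and library depth is therefore unknown. In fetus 1 the rlog value was 8.38 on Day 1 and 9.90 on Day 5. In fetus 2 it was 8.91 on Day 1 and 10.48 on Day 5. In fetus 3 it was 9.26 on Day 1 and 12.12 on Day 5. In each of these 3 fetuses S100A9 was higher on Day 5 than on Day 1. In fetus 4 the rlog value was 8.80 on Day 1 and 11.73 on Day 5. In fetus 5 it was 8.67 on Day 1 and 10.83 on Day 5. Every Day 5 library lay above every Day 1 library, so the days did not overlap for this 1 calgranulin. The same order was found in 94 of the 20046 tested genes (0.469%). In 137 tested genes every Day 5 library lay below every Day 1 library. Genes listed at 0 in all libraries were left out of the tested genes.

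On Day 1 the S100A9 rlog value averaged 8.81 ± 0.32, and on Day 5 it averaged 11.01 ± 0.91 (SD, n = 5 fetuses). The mean difference within fetuses was 2.21 ± 0.67 (SD, n = 5) on the log2 scale. Its standard error in limma was 0.35 without a term for the fetus and 0.21 when fetuses were paired as a block. Ordered by mean difference, S100A9 was rank 5 of the 20046 tested genes. The gene was selected for its difference between the days in these libraries, so a high rank follows from the selection and is no support. As background for the contrast that chose the gene, limma with Benjamini-Hochberg adjustment called 4 genes as higher on Day 5 (0.0200%) without a fetus term and 22 (0.110%) in the paired fit. Both counts depended on single fetuses. Without a fetus term, the number of higher genes was 6 without fetus 1 and 0 without fetus 2, 3, 4 or 5. In those 0-gene fits, 785 to 1008 of the 20046 tested genes had an unadjusted limma p under 0.05. That is near or below the share which this threshold passes when no gene differs. In the paired fit it was 1 without fetus 1, 5 without fetus 2 and 3 without fetus 3, 4 or 5. These counts describe all genes and are no test of S100A9.

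**Figure D3:**
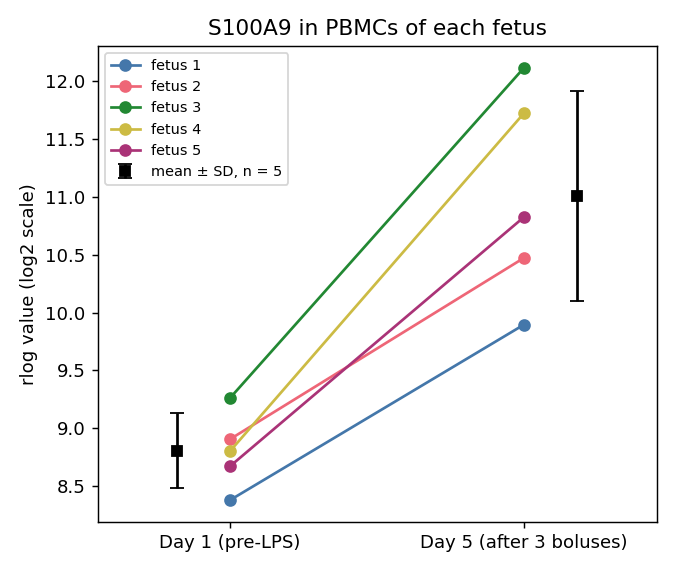
S100A9 rlog value (log2 scale, y axis) in PBMCs of each of the 5 fetuses on Day 1 and Day 5, with a line joining the 2 samples of a fetus. Black squares show the mean ± SD (n = 5); the Day 5 values run from 9.90 to 12.12 and lie above all Day 1 values, which run from 8.38 to 9.26.

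The size of the rise in S100A9 differed between fetuses. The fold change on the linear rlog scale was 2.86 in fetus 1 and 2.97 in fetus 2. It was 4.46 in fetus 5. The rise was 7.25-fold in fetus 3 and 7.59-fold in fetus 4. Fetus 1, with the lowest S100A9 level on Day 1, also had the lowest level on Day 5, and fetus 3 had the highest level on both days. Fetus 2 had the rank 2 level on Day 1 and the rank 4 level on Day 5, while fetus 4 moved from rank 3 to rank 2. A smallest rise within a fetus at least as large as that of S100A9 was found in 4 of the 20046 tested genes, S100A9 included. Since S100A9 was selected for its difference in these libraries, this count is a description and no support. Of the tested genes, 3.53% were higher on Day 5 in all 5 fetuses.

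Fetuses lay farther apart in S100A9 on Day 5 than on Day 1. The highest and the lowest fetus differed 1.85-fold on Day 1 and 4.67-fold on Day 5. The SD of the rlog value on Day 5 was 2.81 times that on Day 1. Over all tested genes the median of this ratio of SDs was 1.04, and 13.3% of the genes had a larger ratio than S100A9. Low values are shrunk most in rlog values, so the ratio was also set against the 9391 genes with a mean rlog value of at least 5, a background chosen after seeing the data. In these the median ratio was 1.05 and 4.51% had a larger ratio. A ratio from 5 fetuses a day is imprecise and was not tested. CXCR2, a receptor for neutrophil-attracting chemokines, had a ratio of 3.33, and the interferon-inducible GTPase gene GBP6 had one of 2.73. The mean rlog value of CXCR2 was low, at 4.72 on Day 1 and 5.97 on Day 5, so shrinkage could have narrowed its Day 1 spread, which was not tested. The ratio was 1.36 for FCGR3A, 1.35 for MS4A7 and 0.85 for IGLL1, so the wider spread on Day 5 was not a feature of every gene that was higher on that day.

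**Figure D4:**
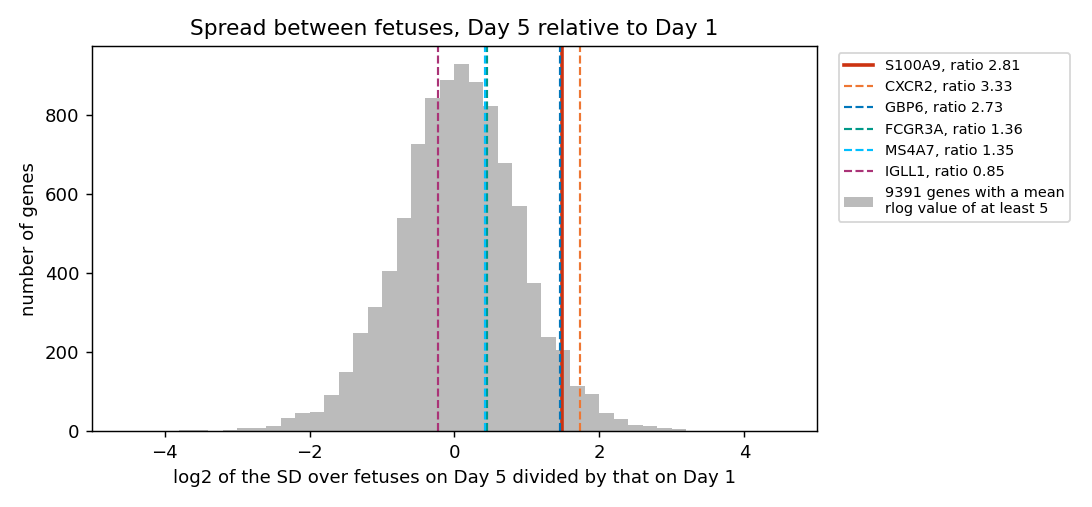
Distribution over 9391 genes (grey bars, number of genes on the y axis) of the log2 ratio of the SD over 5 fetuses on Day 5 to that on Day 1 (x axis). Lines mark S100A9 (solid red, ratio 2.81) and 5 other followed genes (dashed), of which CXCR2 and GBP6 lie near S100A9 and IGLL1 lies below equal spread.

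The S100A9 difference was not of the same size in the 2 sources. On the linear scale the rlog values of S100A9 averaged 456 on Day 1 and 2408 on Day 5, a ratio of 5.28, where the ratio of the authors' means was 9.51. Summed over the 10 libraries, the linear rlog values of S100A9 came to 14324.5, and the total in the authors' table was 8640. Both sources place S100A9 higher on Day 5, but its levels in one cannot be set beside levels in the other. What part the shrinkage of the rlog values and the normalization of the table have in this gap was not tested.

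With the mean of each day removed, the deviations of S100A9 from its day mean were compared with those of the 5 other named genes that could be followed. This takes the difference between the days out of the comparison. The 10 libraries come from 5 fetuses and are not independent, so the correlations are a description and have no p-value. MS4A7, a membrane protein gene of monocytes and macrophages, deviated most like S100A9, with r = 0.80 (Spearman's rho 0.73, 10 libraries). FCGR3A, the Fc receptor CD16 of monocytes and natural killer cells, had r = 0.69 (rho 0.61). CXCR2 had r = 0.51 (rho 0.38). Both genes of the monocyte list had a higher r than CXCR2 over all 10 libraries, an order that turned for FCGR3A without fetus 5. CXCR2 was the only followed gene of the neutrophil list. It had the lowest mean rlog value of the 5 genes, at 5.34, against 6.56 for MS4A7 and 7.94 for FCGR3A. The part of this low level in the order was not tested. GBP6 had r = 0.39 (rho 0.42). IGLL1, an immunoglobulin light chain gene of the B cell lineage, had r = 0.17 (rho 0.13). Among all tested genes, 1.19% had an r with S100A9 at least as high as that of MS4A7, 3.93% as that of FCGR3A, 12.9% as that of CXCR2, 19.6% as that of GBP6 and 34.9% as that of IGLL1.

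The Day 5 samples of fetus 1 and fetus 3 had the S100A9 values farthest from the median deviation. Leaving them out also narrows the range of S100A9, which by itself tends to lower r. Without them r was 0.53 for MS4A7 and 0.24 for FCGR3A. It was -0.14 for CXCR2, 0.30 for GBP6 and -0.29 for IGLL1, so the positive r of CXCR2 was not present without those samples. Without both libraries of fetus 1, r with S100A9 was 0.599 for MS4A7, 0.471 for FCGR3A and 0.165 for CXCR2, and it was negative for GBP6 (-0.156) and IGLL1 (-0.0447). Without fetus 5, r was 0.764 for CXCR2, 0.743 for FCGR3A, 0.904 for MS4A7, 0.670 for GBP6 and 0.312 for IGLL1, which put CXCR2 above FCGR3A. Without fetus 3, GBP6 had r = 0.766 and IGLL1 had r = 0.344. With the means of both day and fetus removed, a paired comparison that leaves the changes within fetuses, r was 0.92 for MS4A7, 0.78 for GBP6 and 0.74 for IGLL1, against 0.51 for FCGR3A and 0.47 for CXCR2. These r rest on only 5 changes within fetuses, so high values are more frequent than in the within-day comparison. Among all tested genes, 0.988% had a paired r with S100A9 at least as high as that of MS4A7, 4.97% as that of GBP6, 6.50% as that of IGLL1, 19.4% as that of FCGR3A and 23.7% as that of CXCR2. MS4A7 had the highest r of the 5 genes over all libraries, without the 2 libraries, without fetus 1, without fetus 5 and in the paired comparison. FCGR3A, IGLL1 and GBP6 belong to families of similar genes, between which the counting could have divided reads.

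**Figure D5:**
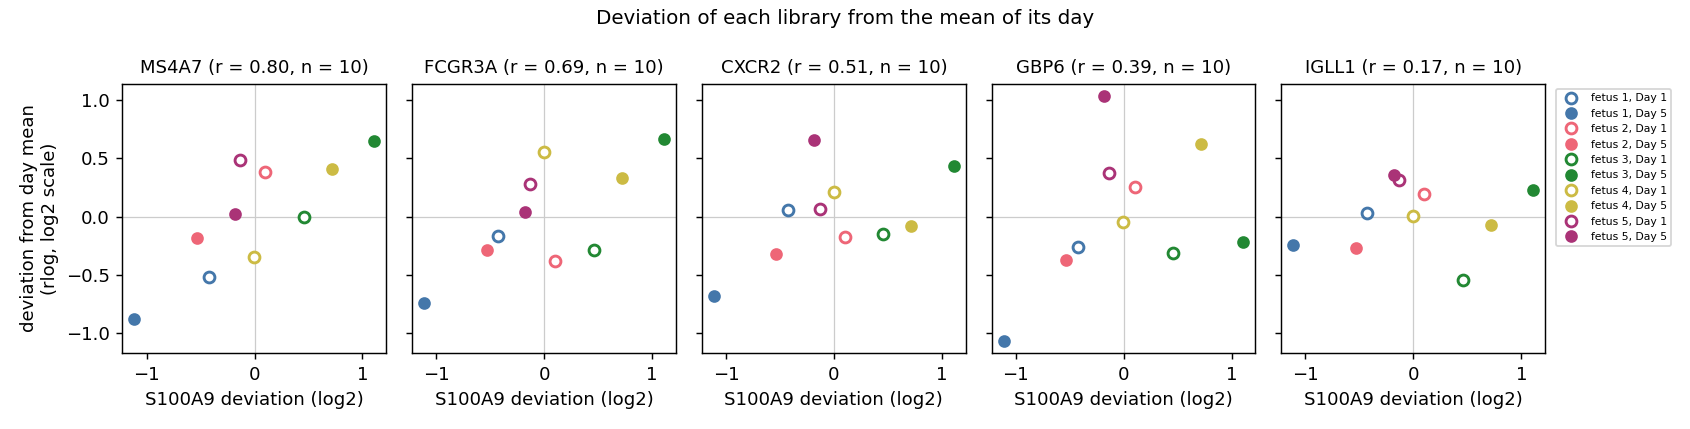
Deviation of each library from the mean of its day (rlog, log2 scale) for S100A9 (x axes) and 5 other genes (y axes), with open circles for Day 1, filled circles for Day 5 and 1 colour per fetus. MS4A7 follows S100A9 most closely (r = 0.80, 10 libraries), and the Day 5 samples of fetus 1 and fetus 3 lie at the ends of the S100A9 axis.

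Over all tested genes, the within-day r with S100A9 had a median of -0.017 and quartiles of -0.30 and 0.30. It was at least 0.9 in 31 of 20045 genes (0.155%) and at most -0.9 in 13. The first of these counts depended on the setting: it was 284 in the paired setting with day and fetus means removed, 67 by Spearman's rho, 16 after quantile normalization and 45 to 286 when 1 fetus was left out. Among genes with a mean rlog value of at least 5, the unnamed genes ENSOARG00020023765 and ENSOARG00020040348 deviated most like S100A9, with r = 0.95 each (rho 0.96 and 0.98). ENSOARG00020029334 (r = -0.98, rho -0.99) and ENSOARG00020018761 (r = -0.95, rho -0.89) deviated most in the opposite direction. Without the 2 libraries farthest from the median, r was 0.97, 0.94, -0.96 and -0.91 for these 4 genes in the same order. Their SDs on Day 1 and Day 5 were 0.07 and 0.20, 0.11 and 0.52, 0.08 and 0.26, and 0.30 and 0.68 in that order. Those of S100A9 were 0.32 and 0.91, so a high r here does not mean a deviation of the same size. The 4 genes are the extremes of the 9391 genes with a mean of at least 5 (S100A9 included), and their likeness with S100A9 was not tested.

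Besides S100A9, 17 genes of the authors' table could be followed by identifier. Their r with S100A9 within days ran from -0.13 to 0.87 with a median of 0.55, and 15 of the 17 were positive. Fetus 1, the animal with the lowest S100A9 on Day 5, was also lowest on Day 5 in 15 of these 17 genes, and in 13 of the 14 that were higher on that day. Over all 20046 tested genes, fetus 1 was lowest on Day 5 in 33.0% and lowest on Day 1 in 34.8%, a larger share than any other fetus had on either day. Among the 9958 tested genes with a higher mean on Day 5 it was lowest on that day in 34.9%. Low values in fetus 1 were thus not limited to the followed genes or to Day 5, and the 17 genes had been selected by the authors on these libraries.

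The 80 listed genes were also searched for genes around the calgranulins. All listed genes were selected as differing between the days, and the gene lists were drawn up with earlier results of these data known, so the counts are a description and say nothing of genes that are not listed. For comparison, the 80 listed genes equal 0.261% of the 30620 genes of the rlog values, and the 59 that were higher on Day 5 equal 0.193%. Of 5 receptors and partners of calgranulins (TLR4, AGER, CD36, CD33 and BSG), 0 were listed. Of 6 subunits of the NADPH oxidase, the complex of phagocytes to which calprotectin delivers arachidonic acid, CYBA and NCF1 were listed and higher on Day 5. The authors' mean of CYBA was 302 on Day 1 and 548 on Day 5, and that of NCF1 was 58.1 on Day 1 and 307 on Day 5. Of 7 targets of NF-κB, the transcription factor downstream of TLR4, 4 were listed and higher, namely NFKBIA, BCL2A1, SOD2 and GADD45B. Their ratios ran from 2.18 to 2.78, below those of all 3 calgranulins.

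The listed genes of neutrophils and monocytes, the cells in which calgranulins are abundant, were higher on Day 5 as well. Of 11 neutrophil genes, CXCR2, MMP25 and VNN2 were listed. Their summed authors' means were 64.73 on Day 1 and 254.1 on Day 5. VNN2 had the highest mean of them on the count scale, at 37.7 on Day 1 and 135 on Day 5. Per kb, MMP25 lay above VNN2, at 1.93 against 1.47 on Day 1 and 6.64 against 5.28 on Day 5. Of 7 monocyte genes, FCGR3A and MS4A7 were listed, with summed authors' means of 89.9 on Day 1 and 300.2 on Day 5. FCGR3A was the more abundant of them at 69.3 on Day 1 and 221 on Day 5. The ratios of the listed neutrophil genes ran from 3.44 to 7.10 and those of the monocyte genes from 3.19 to 3.84, while those of the calgranulins ran from 7.08 to 9.93. What part the share of neutrophils or monocytes among the PBMCs has in the calgranulin difference was not tested.

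Of 4 macrophage genes, C1QA, C1QB and NR1H3 were listed and higher. C1QA, at 14.6 on Day 1 and 330 on Day 5, and C1QB, at 12.2 on Day 1 and 178 on Day 5, exceeded the calgranulins in ratio, and NR1H3 did not. Of 5 B cell genes, 4 were listed and higher, with ratios from 1.74 to 2.36, smaller than those of the calgranulins. Of 5 T and NK cell genes and 3 platelet genes, 0 were listed. Of 3 erythroid genes, XK was listed and lower, at 45.8 on Day 1 and 7.93 on Day 5. The lymphocyte and monocyte identity of the samples could not be checked further, because most marker genes have no symbol in the rlog values.

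The most abundant gene of the rlog values, ENSOARG00020004525, which was singled out after its values were seen, had a lower share on Day 5 in all 5 fetuses. It made up 65.9% to 71.7% of the summed linear rlog values on Day 1 and 59.1% to 66.8% on Day 5. Its share fell by 7.39 percentage points in fetus 4, which had the largest rise in S100A9, while it fell by 4.85 in fetus 1, which had the smallest. It fell by 2.98 in fetus 2, fell by 2.09 in fetus 3 and fell by 1.89 in fetus 5. The part of this share in the S100A9 difference was not tested.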

How the data were processed

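PBMC libraries of 5 fetuses on 2 days were grouped by the day and animal in their labels. The authors checked reads with FastQC 0.11.9, aligned them to ARS-UI_Ramb_v2.0 with STAR 2.7.3a and counted them by strand with featureCounts 2.0.3. The first of the authors' deposited tables holds rlog values (log2 scale) of 30620 genes, without the settings of the transformation. The second holds, for the 80 genes that the authors called, a signal per day (the least-squares mean) and its total over libraries. The study's methods name DESeq2 for differential expression with Benjamini-Hochberg adjustment, while the program that wrote the least-squares means and their normalization are not given in the sources used here. The values are rounded, with 5 times the summed means between 0.978 and 1.01 of the total. Its columns of ratio, fold change, p-value and adjusted p-value were not used. Of the per-library columns, 0 were left unused.

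Genes listed at 0 in all libraries (10574) were left out. limma 3.58.1 in R 4.3.3 was run on the other 20046 genes (lmFit, eBayes with a mean-variance trend, Benjamini-Hochberg adjustment over all of them). A gene was called if its fold change was over 1.5 and its adjusted p under 0.05. Within-day r was computed on deviations from day means in Python with numpy and scipy. Both steps were tested on simulated data. The pairing comes from the animal number, since both samples of a fetus are from the same animal. The deviations of the 2 libraries of a fetus correlated across genes at 0.481, 0.192, 0.174, 0.179 and 0.198 for fetus 1 to 5. The highest correlation of the Day 1 library with the Day 5 library of another fetus was -0.107, 0.007, 0.114, 0.007 and 0.136 in the same order.

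Named genes were the 3 calgranulins, the listed genes of fixed lists (receptors and partners, NADPH oxidase, NF-κB targets, S100 family, cell type markers) and 5 genes with a known identifier. To these were added the 2 unnamed genes with the highest and the 2 with the lowest r among genes with a mean rlog value of at least 5. Members and lists were chosen with earlier results of these data known. The symbols CXCR2, FCGR3A, IGLL1, MS4A7 and GBP6 were tied to identifiers through matching values in the study's gene tables, since 0 of the 30620 identifiers matched the RefSeq table of ARS-UI_Ramb_v3.0. Alternatives were other normalizations, a rank correlation, a filter on low genes, the fetus as a block, no trend, a log2 fold change over 1 and leaving out each fetus. Planned descriptions of the proteins and promoters, and the level per residue, were not run for want of sequences.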

Additional observations from a re-analysis of the deposited data

How the results depend on the processing

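The mean difference of S100A9 between the days kept its direction and stayed within 1 SD under every alternative run. All 5 fetuses were higher on Day 5, so leaving out 1 fetus could not reverse it. The fetus block leaves the mean unchanged by design. The kept direction is therefore no test of the difference for which the gene was selected. Leaving out 1 fetus at a time gave 2.03 to 2.38, and it was 2.16 as the median, 2.21 after quantile normalization and 2.23 after median centring. The SD of S100A9 on Day 5 over that on Day 1 was 2.81 and, leaving out 1 fetus at a time, 2.52 to 3.36, the highest without fetus 3. The S100A9 ratio of 9.51 in the authors' means became 5.28 from linear rlog values, and the cause was not tested.

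The number of genes with r of at least 0.9 with S100A9 was 31. It was 67 by Spearman's rho, 16 after quantile normalization and 284 with day and fetus means removed, the paired (replicate block) setting. Without 1 fetus it ran from 45 (without fetus 1) to 286 (without fetus 4), where fewer libraries make high r more frequent. Without the 2 libraries farthest from the median, chosen after seeing the data, r with S100A9 reversed to -0.14 for CXCR2 and -0.29 for IGLL1. Without 1 fetus, r ran from -0.0447 to 0.344 for IGLL1 and from -0.156 to 0.766 for GBP6, both reversed without fetus 1. The causes were not tested.

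limma called 4 genes in all. It called 27 with the fetus as a replicate block, 17 without the lowest 25% of genes and 0 without the trend, where 1302 genes had an unadjusted p under 0.05. The block with the lowest genes left out, added after seeing the data, gave 140. With a fetus left out the number ran from 0 to 6, with 6 without fetus 1 and 0 without fetus 2, 3, 4 or 5. In the fits with 0, 785 to 1008 of the 20046 tested genes had an unadjusted limma p under 0.05, near or below the share passed when no gene differs. With the block and a fetus left out, also added later, it was 1 to 5. Genes with every Day 5 library above every Day 1 library numbered 94, and 229 to 454 with 1 fetus left out, since 4 libraries a day overlap less often. No call is given for the calgranulins in any fit, since they were selected on these libraries.

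With 5 fetuses and no counts, the counting error of S100A9 is unknown. No replicate error is given for S100A8 and S100A12, whose values in single fetuses were not analysed here.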
